A study of Mus musculus with 12 samples.

Results

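The interleukin 6 family was followed here as 10 genes, comprising 4 secreted ligands (Il6, Lif, Il11 and Clcf1), 4 receptor chains (Il6ra, Il6st, Lifr and Osmr), the transcription factor gene Stat3 and the inhibitor gene Socs3. All probes whose transcript accession belonged to one of these symbols were taken, giving 13 of the 39429 probes on the array and 10 of the 19507 genes tested. Lifr had 3 probes, Stat3 had 2, and each of the other genes had 1. All 13 probes passed the filter on dim probes, and all but the Lif probe were well above background on every array. The Lif probe was above background on all arrays except WT early replicate 2.

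The cells were mouse embryonic fibroblasts (MEFs), primary cells grown out of embryos taken at E12.5 and kept in serum-containing medium. Itpr2 knock-out (KO) cells and wild-type (WT) cells were each sampled after 5 passages (late) and after 3 passages (early), with 3 arrays in each of the groups KO late, WT late, KO early and WT early. Itpr2 encodes a channel that releases calcium from the endoplasmic reticulum. The series design text names 3 independent animals of each genotype, and nothing else says how far replicates are separate cultures, so the p-values measure the spread between these samples. The labels do not give the strain, the allele or the sex of the embryos.

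The family works through a shared signalling chain. Each ligand binds a receptor complex that contains gp130, the product of Il6st. Interleukin 6 uses the ligand-binding chain encoded by Il6ra, LIF pairs gp130 with the Lifr product, oncostatin M in the mouse pairs it with the Osmr product, and interleukin 11 uses the Il11ra1 product. JAK kinases bound to the receptor then phosphorylate STAT3, which enters the nucleus and induces target genes. One of these targets is Socs3, whose product binds gp130 and JAK and shuts the signal down. Fibroblasts secrete interleukin 6 and LIF, and interleukin 6 is among the secreted factors known from senescent cells in culture.

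Between 59.2% and 67.5% of probes were well above background per array, no spot was saturated, and replicates of a group correlated at 0.985 to 0.997 over the genes tested. The Itpr2 probe did not mark the KO arrays. Its log2 level was 1.76 ± 0.058 in KO late, 1.61 ± 0.11 in WT late, 1.35 ± 0.23 in KO early and 0.95 ± 0.28 in WT early (SD, n = 3 each). The sources used here do not place this probe relative to the deleted part, so it checks nothing. Ints13, named after its values were seen, separated the genotypes at both passages, with all KO arrays at 1.03 or above and all WT arrays at 0.35 or below. Xist, transcribed from the inactive X of female cells, was above background on replicates 1 and 2 of KO late, on replicate 1 of WT late and on replicate 1 of WT early, and on no KO early array. The late and early KO arrays of replicates 1 and 2 therefore differ in this marker. Ddx3y, a gene of the Y chromosome, read -0.14 on KO late replicate 1, which thus carried both signals. It read -7.56 on KO late replicate 2, -7.05 on WT late replicate 1 and -7.43 on WT early replicate 1. The other arrays read 0.76 to 0.95. Whether KO late replicate 1 mixed cells of both sexes was not tested. On the first principal component of all genes, KO early replicate 3 (-24.9) lay with the other early arrays (-50.1 to -25.6), away from the KO late arrays (46.05 to 49.65). On the second component it (-23.5) lay nearer to the KO late arrays (-30.9 to -25.7) than to the other KO early arrays (3.87 and -10.9). Of 12 fibroblast markers, all were above background on every array.

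The 250 bases upstream of the RefSeq start site (GRCm38.p6) are shown for Il6 and Lif, the ligands with the largest late-passage differences, and for Socs3 and Il6st, the genes that differed between late KO and late WT cells. Capitals mark matches on either strand to 4 motifs, namely the STAT motif TTCNNNGAA, the AP-1 motif TGANTCA, the C/EBP motif TTGNNCAA and the degenerate NF-kB consensus.
Il6, chr5:30012864-30013113, plus strand: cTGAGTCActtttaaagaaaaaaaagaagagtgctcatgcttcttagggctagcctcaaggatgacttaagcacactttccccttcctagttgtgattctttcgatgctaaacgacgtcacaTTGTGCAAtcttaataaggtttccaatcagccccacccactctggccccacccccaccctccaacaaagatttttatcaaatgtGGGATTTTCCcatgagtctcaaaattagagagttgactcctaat
Lif, chr11:4257318-4257567, plus strand: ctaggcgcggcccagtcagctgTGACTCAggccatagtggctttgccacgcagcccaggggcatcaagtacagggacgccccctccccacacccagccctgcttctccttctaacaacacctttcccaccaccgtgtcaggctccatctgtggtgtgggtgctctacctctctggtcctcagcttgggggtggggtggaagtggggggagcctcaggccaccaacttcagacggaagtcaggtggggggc
Socs3, chr11:117969367-117969616, minus strand: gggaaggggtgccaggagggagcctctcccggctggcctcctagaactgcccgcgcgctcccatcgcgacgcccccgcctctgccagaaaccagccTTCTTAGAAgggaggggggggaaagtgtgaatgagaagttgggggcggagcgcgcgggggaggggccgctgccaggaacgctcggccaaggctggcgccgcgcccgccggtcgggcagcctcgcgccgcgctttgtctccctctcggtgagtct
Il6st, chr13:112463820-112464069, plus strand: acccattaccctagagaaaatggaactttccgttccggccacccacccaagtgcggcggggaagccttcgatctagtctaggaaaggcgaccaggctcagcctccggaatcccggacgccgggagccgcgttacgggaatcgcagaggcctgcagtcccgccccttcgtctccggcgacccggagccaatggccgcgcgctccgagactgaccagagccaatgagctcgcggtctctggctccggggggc

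The Il6 window held an AP-1 match (TGAGTCA) 249 to 243 bases upstream of the start, a C/EBP match (TTGTGCAA) 128 to 121 bases upstream and an NF-kB match (GGGATTTTCC) 44 to 35 bases upstream. The Lif window held an AP-1 match (TGACTCA) 228 to 222 bases upstream. The Socs3 window held a STAT match (TTCTTAGAA) 154 to 146 bases upstream. The Il6st window held none of the 4 motifs. Among all 32817 windows of this length, 7.01% held the STAT motif, 6.75% the AP-1 motif, 3.9% the NF-kB motif and 5.65% the C/EBP motif, with no overlap between the matches marked above. A window was found for 9 of the 10 genes, and the only other match was AP-1 98 to 92 bases upstream of the second Il11 start. A match is a run of letters and was not tested as a binding site.

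Levels are given below as log2 of the scanner's processed signal minus the array's own 75th percentile, so that 0 is the 75th percentile of that array. They serve to compare a probe between arrays and not one probe with another. A gene is said to have risen or fallen where limma's moderated test gave a Benjamini-Hochberg adjusted p under 0.05 over the 19507 genes. For 1 gene and 3 arrays against 3, the smallest two-sided p of an exact permutation test is 0.1.

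At late against early passage, 3 of the 4 ligands rose in both genotypes. Il6, Lif and Clcf1 were each between 1.99 and 3.62 times higher in late than in early cells, and Il11 passed the test in neither genotype. In KO cells 5 of the 10 members rose (Il6, Lif, Clcf1, Il6st and Osmr), where 9.95% of all genes tested rose. In WT cells 3 of the 10 rose (Il6, Lif and Clcf1), where 6.22% of all genes rose. No member fell in either genotype, where 9% of all genes fell in KO and 4.37% in WT cells. All late arrays stood above all early arrays for 6 members in KO cells, against 22.6% of all genes, and for 4 members in WT cells, against 13.9%. They stood below for 1 member in WT cells, Lifr, against 13.8% of all genes. The median difference of the 10 genes was 0.96 in KO and 0.31 in WT cells, against -0.0472 in KO and -0.00428 in WT cells over all genes.

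Cell type markers were also compared between passages. Of 15 macrophage markers, none passed the test in late against early KO cells (median difference -0.12). In WT cells 1 passed, Lyz2, which was higher at late passage by 1.33 ± 0.33 (adjusted p = 0.0315, limma), where 6.22% of all genes rose. Of the 15 differences in WT cells, 13 were positive (median 1.00). The summed level of these markers, in multiples of the 75th percentile, was 40.9 to 75.4 in KO late, 81.2 to 137.2 in WT late, 56.1 to 72.7 in KO early and 57.6 to 111.7 in WT early. Of 12 fibroblast markers, 3 fell in KO and 3 in WT cells, with medians of -0.20 in KO and -0.47 in WT cells. Their summed level was 702.5 to 775.2 in KO late, 654.9 to 729.2 in WT late, 841.7 to 897.1 in KO early and 783.9 to 937.5 in WT early, so late and early arrays did not overlap in either genotype. Of 9 cartilage markers tested, 3 rose in KO and 3 fell in WT cells. Of 5 neural markers, 1 rose and 1 fell in KO and 2 rose in WT cells. Of 3 endothelial markers tested 1 rose in each genotype, and of 3 skeletal muscle markers 1 fell in each. Of 2 epithelial markers, 1 fell in KO cells. Of all genes, 9.95% rose and 9% fell in KO cells, and 6.22% rose and 4.37% fell in WT cells. The part of all these markers in the late-passage rise of Il6, Lif and Clcf1 was not tested.

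Il6 encodes interleukin 6, the founding cytokine of the family. Its level was -0.56, -0.62 and -0.49 in KO late, -0.78, -1.63 and -0.58 in WT late, -2.57, -2.37 and -2.31 in KO early, and -1.89, -2.67 and -1.95 in WT early. All late arrays stood above all early arrays of their genotype, and replicate 2 was the lowest WT array at each passage. Il6 rose by 1.86 ± 0.27 (SE) on the log2 scale in late over early KO cells, or 3.62-fold (adjusted p = 0.00216, limma). In WT cells it rose by 1.17 ± 0.27, or 2.25-fold (adjusted p = 0.0241). Within the slides, each of which carried 1 array of every group, the difference was 2.01, 1.74 and 1.82 in KO and 1.11, 1.03 and 1.37 in WT cells. The WT call was lost without WT late replicate 1 (adjusted p = 0.0747), without WT late replicate 3 (adjusted p = 0.0665) or without WT early replicate 2 (adjusted p = 0.066), with differences of 1.06, 0.96 and 0.92.

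Lif encodes leukemia inhibitory factor. Its level was -4.15, -4.47 and -3.94 in KO late, -3.65, -4.15 and -4.02 in WT late, -5.82, -5.42 and -5.39 in KO early, and -5.69, -6.20 and -4.91 in WT early, where replicate 2 was not above background. Late and early arrays did not overlap in either genotype. Lif rose by 1.36 ± 0.29 in late over early KO cells, or 2.56-fold (adjusted p = 0.0112), and by 1.66 ± 0.29 in late over early WT cells, or 3.16-fold (adjusted p = 0.00889, limma). The probe is dim, with processed signals of 8.98 to 71.7. With normexp background correction and an offset of 50 the difference was 0.26 in KO and 0.32 in WT cells, and neither passed the test (adjusted p = 0.0859 and 0.0513).

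Clcf1 encodes cardiotrophin-like cytokine factor 1, a ligand of the ciliary neurotrophic factor receptor. Its level was -2.03, -1.97 and -1.85 in KO late, -1.03, -1.23 and -2.15 in WT late, -3.00, -2.97 and -2.85 in KO early, and -2.60, -2.55 and -2.26 in WT early. The KO arrays lay close together at each passage, whereas WT late replicate 3 was only 0.10 above its early counterpart on the same slide. Clcf1 rose by 0.99 ± 0.24 in late over early KO cells, or 1.99-fold (adjusted p = 0.0174, limma), and by 1.00 ± 0.24 in WT cells, or 2.00-fold (adjusted p = 0.0281). With the replicate number as a block within each genotype the adjusted p was 0.0531 in KO and 0.0712 in WT cells. The KO call was also lost with the Xist signal as a covariate (0.93, adjusted p = 0.0688) and on leaving out any single KO array except KO early replicate 3, with adjusted p between 0.0508 and 0.061. The WT call was lost without WT late replicate 1 or 2 or WT early replicate 1 or 2, with adjusted p between 0.0563 and 0.0839.

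Il11 encodes interleukin 11, a ligand tied to fibrosis and stromal cells. Its level was -1.67, -1.91 and -1.53 in KO late, -0.20, -1.27 and -1.30 in WT late, -1.80, -1.97 and -2.09 in KO early, and -1.57, -2.22 and -1.67 in WT early. WT late replicate 1 stood about a log2 unit above every other array, and the KO arrays of both passages overlapped. The late minus early difference was 0.25 ± 0.28 in KO (adjusted p = 0.563) and 0.90 ± 0.28 in WT cells (adjusted p = 0.0693). Without WT late replicate 1 the WT difference was 0.54 (adjusted p = 0.136). The WT difference passed in 3 of 28 alternative fits, that with the replicate number as a block within each genotype among them (adjusted p = 0.0448). In late KO against late WT cells Il11 was lower on every array, by -0.78 ± 0.28 (adjusted p = 0.116), and by -0.42 without WT late replicate 1.

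**Figure D1:**
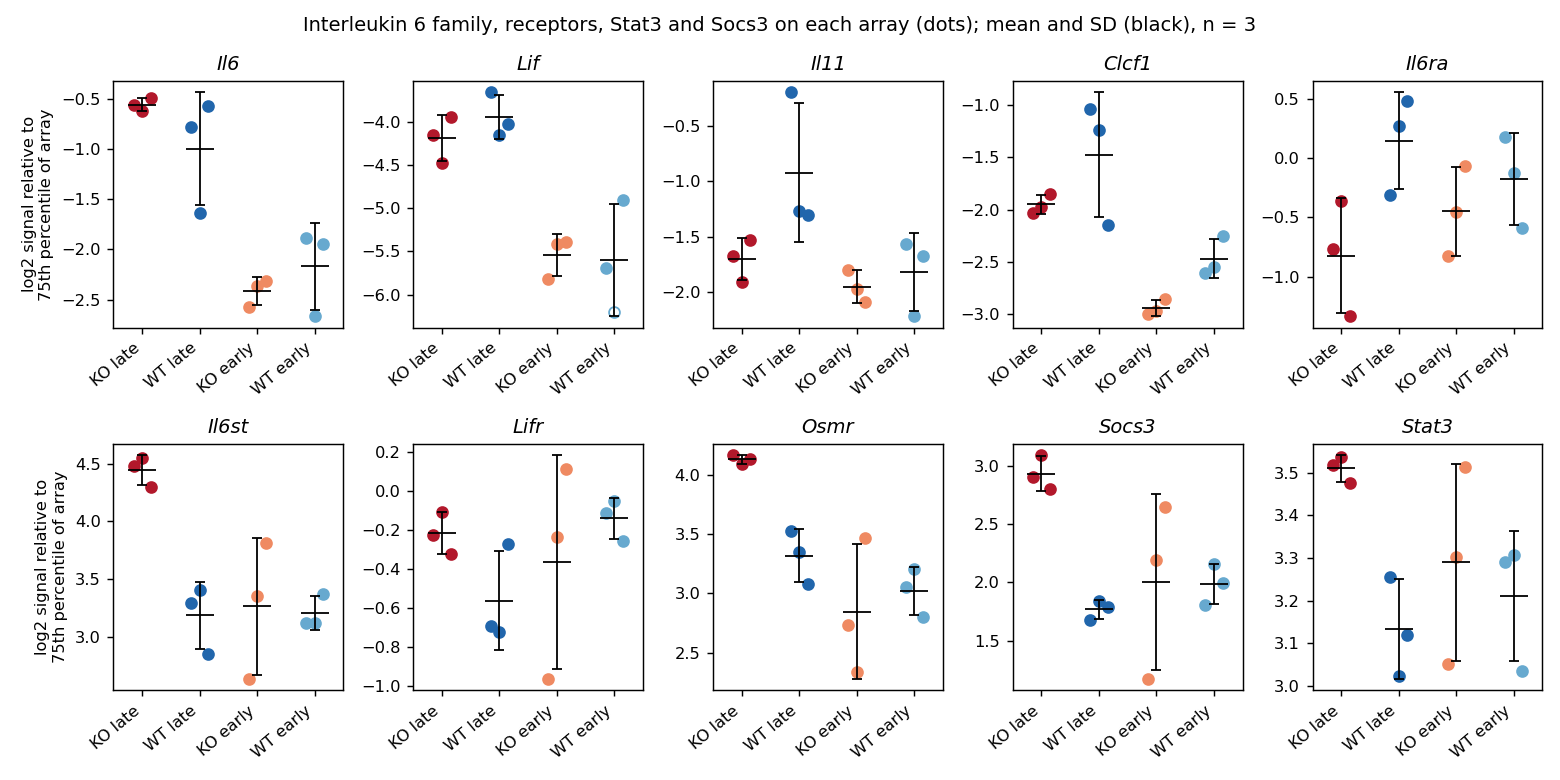
Level of each of the 10 genes on each of the 12 arrays, as log2 signal relative to the array's 75th percentile, with KO late, WT late, KO early and WT early from left to right, black bars at the mean ± SD (n = 3) and an open dot where the probe was not above background. The late arrays of Il6 and Lif stand above the early arrays of the same genotype, and the KO late arrays of Il6st, Osmr and Socs3 stand above the other groups.

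Between late KO and late WT cells, the receptor chain Il6st and the inhibitor Socs3 were higher in KO. These were 2 of the 10 members, where 7.83% of all genes tested were called in either direction and 3.46% were higher. No member was lower at the threshold, where 4.37% of all genes were. Other settings did make lower calls, of Il6ra with normexp background correction, of Clcf1 without WT late replicate 3 (-0.82, adjusted p = 0.0168), and of Il11, Clcf1 and Il6ra with array weights. The KO and WT arrays did not overlap for 6 members, of which Il6st, Osmr, Socs3 and Stat3 were higher and Il11 and Il6ra lower in KO. Of all genes 19% were higher and 20.3% lower in this way. The median difference of the 10 genes was 0.36, against -0.00814 over all genes. This comparison and the passage comparison in KO cells share the KO late arrays and are not independent.

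Il6st encodes gp130, the signalling chain used by every ligand described here. Its level was 4.48, 4.55 and 4.30 in KO late, 3.30, 3.41 and 2.86 in WT late, 2.63, 3.35 and 3.81 in KO early, and 3.12, 3.12 and 3.37 in WT early. All KO late arrays stood above all 9 others. Il6st was higher in late KO than in late WT cells by 1.26 ± 0.26 on the log2 scale, or 2.39-fold (adjusted p = 0.0196, limma), with 1.19, 1.14 and 1.44 within the slides. It rose by 1.18 ± 0.26 in late over early KO cells, or 2.26-fold (adjusted p = 0.0118), with within-slide differences of 1.85, 1.20 and 0.49. In WT cells the late minus early difference was -0.02 ± 0.26 (adjusted p = 0.974). The KO against WT call was lost without any 1 of the KO late arrays (adjusted p = 0.0795, 0.0704 and 0.0523 without replicates 1, 2 and 3) or without WT late replicate 3 (adjusted p = 0.0676), while the difference lay between 1.09 and 1.37 whichever array was left out.

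Osmr encodes the chain that pairs with gp130 in the oncostatin M receptor. Its level was 4.16, 4.09 and 4.13 in KO late, 3.52, 3.35 and 3.08 in WT late, 2.74, 2.34 and 3.46 in KO early, and 3.06, 3.20 and 2.80 in WT early. The KO late arrays were again the highest of all 12 and lay within 0.1 of each other. Osmr rose by 1.28 ± 0.24 in late over early KO cells, or 2.43-fold (adjusted p = 0.00651, limma), with 1.43, 1.75 and 0.67 within the slides. Its difference was 0.30 ± 0.24 in late over early WT cells (adjusted p = 0.447). Late KO exceeded late WT by 0.81 ± 0.24, or 1.75-fold, which did not pass the test (adjusted p = 0.0672). That difference did pass without KO early replicate 3 (adjusted p = 0.016) or replicate 2 (adjusted p = 0.0485), which changes the pooled spread and not the difference. It also passed with normexp background correction (0.82, adjusted p = 0.0381), with only the groups compared (adjusted p = 0.0201), with a trended and robust prior (adjusted p = 0.0445) and with array weights (adjusted p = 0.018). These were all its passes, 6 of 27 alternative fits.

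Il6ra encodes the ligand-binding chain for interleukin 6, which is known to be abundant on myeloid cells. Its level was -0.76, -0.37 and -1.33 in KO late, -0.31, 0.27 and 0.48 in WT late, -0.82, -0.46 and -0.07 in KO early, and 0.18, -0.12 and -0.59 in WT early. KO late lay below WT late on every array, narrowly for KO replicate 2 against WT replicate 1. The difference was -0.97 ± 0.31 (adjusted p = 0.0807, limma), with -0.46, -0.64 and -1.81 within the slides. It passed in 2 of 27 alternative fits, with normexp background correction (-0.85, adjusted p = 0.0495) and with array weights (adjusted p = 0.0203). Without KO late replicate 3 it was -0.71 (adjusted p = 0.243). The passage differences of Il6ra were -0.37 ± 0.31 in KO (adjusted p = 0.424) and 0.33 ± 0.31 in WT cells (adjusted p = 0.519), and leaving out single arrays moved them between -0.60 and -0.12 in KO and between 0.12 and 0.55 in WT cells.

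Macrophage markers differed in the same comparison. All 15 were above background on every array, and the sums given above did not overlap between KO late and WT late. KO late replicate 3, the lowest Il6ra array, also had the lowest sum, and WT late replicate 3, the highest Il6ra array, had the highest. Of the 15 markers, 2 were lower in late KO than in late WT cells, where 4.37% of all genes were lower. These were Lyz2 by -1.32 ± 0.33 (adjusted p = 0.0384, limma) and Cd68 by -1.43 ± 0.38 (adjusted p = 0.0458). The median difference of the 15 was -1.17. Lower sums in KO late were not particular to macrophage markers. Neural sums were 9.31 to 11.7 in KO late and 14.7 to 16.7 in WT late. Skeletal muscle sums were 7.79 to 9.21 and 10.3 to 15.7, and endothelial sums 3.41 to 3.63 and 3.81 to 3.88. Epithelial sums were 0.074 to 0.0801 and 0.0913 to 0.319. Fibroblast and cartilage sums overlapped. Of 12 fibroblast markers, 1 was higher and 2 lower in late KO than in late WT cells. Of 5 neural markers 1 was higher and 1 lower, and of 3 skeletal muscle markers 1 was lower. No endothelial or epithelial marker tested was called. Of all genes, 3.46% were higher and 4.37% lower. The part of the macrophage or other markers in the Il6ra difference was not tested. In such bulk RNA, fewer cells of a type and less RNA per cell cannot be told apart.

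**Figure D2:**
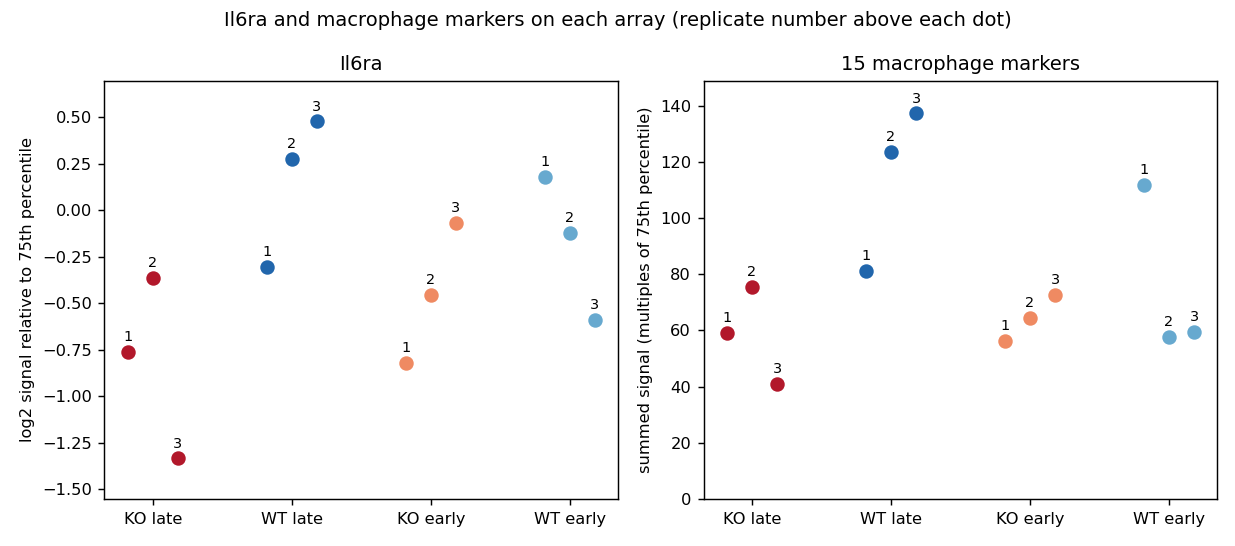
Level of Il6ra (left, log2 signal relative to the 75th percentile) and summed level of 15 macrophage markers (right, multiples of the 75th percentile) on each array, numbered by replicate. KO late replicate 3 is the lowest array and WT late replicate 3 the highest array in both panels.

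Lifr encodes the LIF receptor chain, and its probes differed from each other in sign. The probe with the highest signal read -0.22, -0.11 and -0.32 in KO late, -0.69, -0.73 and -0.27 in WT late, -0.97, -0.24 and 0.11 in KO early, and -0.11, -0.05 and -0.26 in WT early. KO early was the most scattered group, and WT late lay below WT early on every slide, by -0.58, -0.68 and -0.015. Its late KO minus late WT difference was 0.35 ± 0.23 (adjusted p = 0.404), while the other Lifr probes gave 0.04 and -0.04. In late over early KO cells the 3 probes gave 0.15, -0.43 and 0.13. No Lifr probe passed the test in any comparison.

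Socs3 encodes the feedback inhibitor that STAT3 induces. Its level was 2.90, 3.09 and 2.80 in KO late, 1.68, 1.84 and 1.78 in WT late, 1.17, 2.19 and 2.65 in KO early, and 1.80, 2.15 and 2.00 in WT early. All KO late arrays stood above every other array, and the KO early arrays spanned more than a log2 unit. Socs3 was higher in late KO than in late WT cells by 1.16 ± 0.29, or 2.24-fold (adjusted p = 0.0403, limma), with 1.22, 1.25 and 1.01 within the slides. In late over early KO cells the difference was 0.93 ± 0.29 (adjusted p = 0.0515), with 1.73, 0.90 and 0.15 within the slides. It was 0.51 without KO early replicate 1 (adjusted p = 0.0747), the lowest array, and 1.25 without KO early replicate 3 (adjusted p = 0.00989). It passed in 10 of 28 alternative fits, quantile normalization, normexp and the authors' deposited value table among them. In WT cells it was -0.22 ± 0.29 (adjusted p = 0.663). The KO against WT call was lost without any 1 of the 6 late arrays (adjusted p between 0.0755 and 0.125), without WT early replicate 2 (adjusted p = 0.0525) or without KO early replicate 2 (adjusted p = 0.0632). The difference itself lay between 1.08 and 1.23 in these fits.

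Stat3 encodes the transcription factor at the end of the chain. Its brighter probe, printed on 10 spots, read 3.52, 3.54 and 3.48 in KO late, 3.26, 3.02 and 3.12 in WT late, 3.05, 3.30 and 3.51 in KO early, and 3.29, 3.31 and 3.04 in WT early. The KO late arrays stood above all WT arrays, while KO early replicate 3 was level with them. Late KO exceeded late WT by 0.38 ± 0.13, or 1.30-fold (adjusted p = 0.0927, limma). This passed in 2 of 27 alternative fits, with only the groups compared (adjusted p = 0.0425) and with array weights (adjusted p = 0.0057). The passage difference was 0.22 ± 0.13 in KO (adjusted p = 0.245) and -0.08 ± 0.13 in WT cells (adjusted p = 0.72). The dimmer probe, of another transcript accession, gave 0.33 ± 0.22 between late KO and late WT cells and 0.69 ± 0.22 between late and early KO cells (adjusted p = 0.41 and 0.059 in a fit of every kept probe). These measure the amount of Stat3 RNA and not the phosphorylation of the protein.

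At early passage no member differed between KO and WT cells at the threshold, where 0.0359% of all genes (7 of 19507) did. At an unadjusted p under 0.05 there were also 0 members, where 5.99% of all genes were. Clcf1 was the only member whose groups did not overlap, with all KO early arrays below all WT early arrays (-0.47 ± 0.24, adjusted p = 0.741), against 4.29% of all genes. The other differences lay between -0.27 ± 0.31 for Il6ra and 0.08 ± 0.13 for Stat3, and the median was -0.15. Outside this range, the dimmer Stat3 probe gave -0.50 ± 0.22 and a dimmer Lifr probe 0.18 ± 0.16. Neither passed in limma's fit of every kept probe (adjusted p = 0.707 and 0.755). The early KO minus early WT difference was 0.06 ± 0.26 for Il6st and 0.02 ± 0.29 for Socs3.

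The passage difference in KO cells minus that in WT cells was tested directly for each gene. It was 1.20 ± 0.36 for Il6st (adjusted p = 0.223, limma), 1.14 ± 0.42 for Socs3 (adjusted p = 0.281), 0.98 ± 0.34 for Osmr (adjusted p = 0.269) and 0.69 ± 0.38 for Il6 (adjusted p = 0.444). It was negative for Il11 (-0.65 ± 0.40, adjusted p = 0.489) and Il6ra (-0.70 ± 0.43, adjusted p = 0.494), and the median of the 10 genes was 0.43 against -0.02 over all genes. No member passed this test, which 0.0871% of all genes passed, while Il6st, Socs3 and Osmr had an unadjusted p under 0.05 (0.0079, 0.0199 and 0.016), as did 13.9% of all genes. A passage difference that passed in KO cells and not in WT cells is therefore not shown to differ between the genotypes. Without KO early replicate 3 the Osmr value was 1.29 and passed (adjusted p = 0.0415). The value was 0.73 for Socs3 without KO early replicate 1, 0.37 for Il6 without WT late replicate 2, -0.28 for Il11 without WT late replicate 1 and -0.44 for Il6ra without KO late replicate 3.

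**Figure D3:**
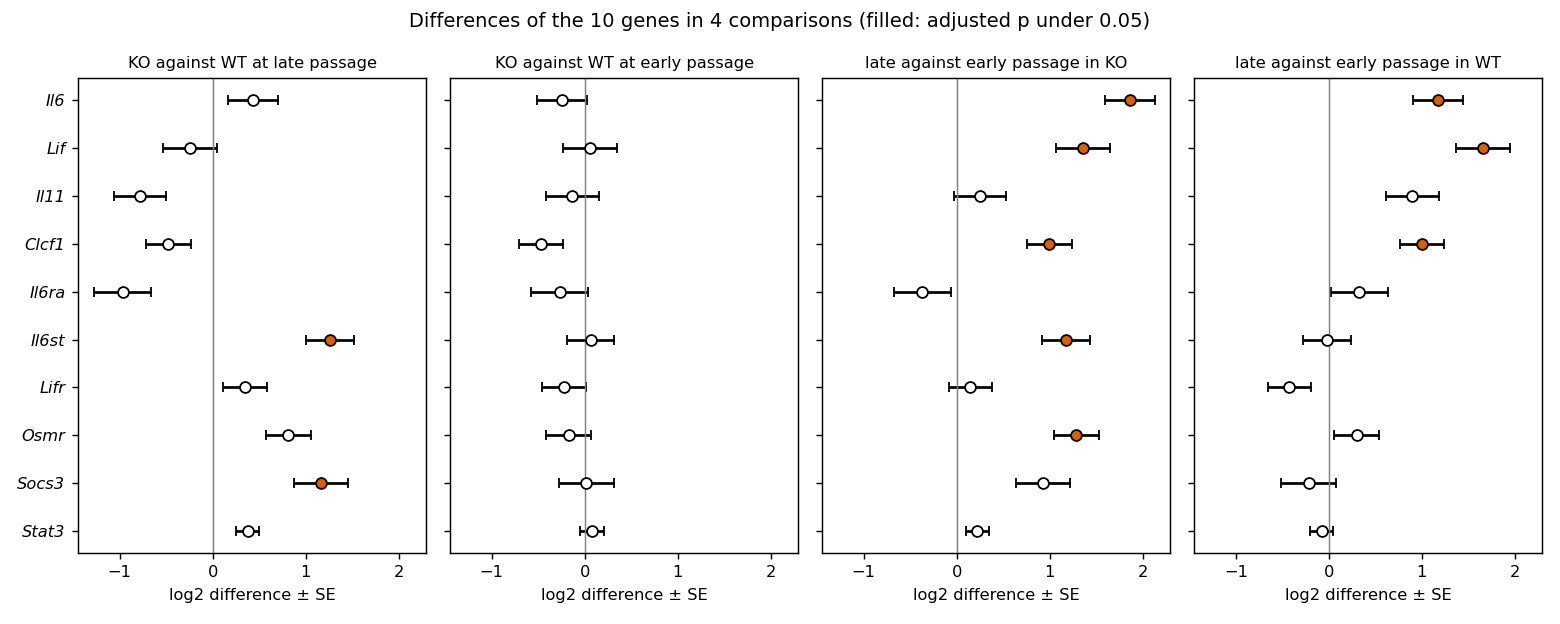
Log2 difference and its standard error for each of the 10 genes in the comparisons of KO with WT cells at late and early passage and of late with early passage in KO and WT cells, with filled points where the adjusted p was under 0.05. Il6, Lif and Clcf1 are filled in both passage comparisons, Il6st and Osmr in that of KO cells, and Il6st and Socs3 in that of KO with WT cells at late passage.

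The Xist signal was found on KO late replicates 1 and 2 and WT late replicate 1 among the late arrays. KO late replicate 1 carried Ddx3y as well. KO late replicate 3, which lacks Xist, read 4.30 for Il6st, 4.13 for Osmr and 2.80 for Socs3, above every WT late array. With both Xist-positive KO late arrays left out, the late KO minus late WT difference was 1.11 for Il6st (adjusted p = 0.333) and 1.03 for Socs3 (adjusted p = 0.463), and 1 of all genes passed. The late minus early KO difference was then 1.92 for Il6 (adjusted p = 0.0821), 1.60 for Lif (adjusted p = 0.118), 1.10 for Clcf1 (adjusted p = 0.195), 1.03 for Il6st (adjusted p = 0.249) and 1.29 for Osmr (adjusted p = 0.144). The lone remaining KO late array is assumed in that fit to vary like the other groups. With the Xist signal as a covariate, Il6st kept its call between late KO and late WT cells and Socs3 lost it (1.19, adjusted p = 0.0587), and Clcf1 lost its call between late and early KO cells.

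The rest of the pathway was described through lists of genes by role. Of 8 further family ligands, 6 were measured and none passed the test in any comparison. Of 4 further receptor genes, Il11ra1, the ligand-binding chain for interleukin 11, was the one measured. It was higher in late KO than in late WT cells by 0.65 ± 0.14 (adjusted p = 0.0247, limma). In WT cells it fell by 0.68 ± 0.14 at late against early passage (adjusted p = 0.0174). Of 6 kinase, STAT and adaptor genes, Gab1 rose by 0.62 ± 0.17 in late over early KO cells (adjusted p = 0.0313), and no other call was made in this list.

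Among 8 inhibitors of JAK-STAT signalling other than Socs3, 2 were higher and 1 lower in late KO than in late WT cells. Of all genes 3.46% were higher and 4.37% lower. Socs1, a JAK inhibitor known mainly from interferon signalling, averaged 0.90 ± 0.21 in KO late and -0.35 ± 0.32 in WT late (SD, n = 3 each), a difference of 1.25 ± 0.21 (adjusted p = 0.00957, limma). Ptpn2, a phosphatase acting on JAK and STAT proteins, was higher by 0.48 ± 0.11 (adjusted p = 0.0257). Cish, an inhibitor induced by STAT5, was lower by -0.60 ± 0.13 (adjusted p = 0.0238). The median difference of the 8 was 0.08, against -0.00814 over all genes, and none passed in the other 4 comparisons.

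Of 18 genes listed as STAT3 targets, 16 were measured. In late KO against late WT cells 4 were higher and 1 lower, with a median of 0.23 against -0.00814 over all genes. Of all genes 3.46% were higher and 4.37% lower in this comparison. Lcn2, which encodes the iron-carrier binding protein lipocalin, was higher by 1.15 ± 0.18 (adjusted p = 0.00734), Cebpb, a transcription factor gene, by 0.70 ± 0.16 (adjusted p = 0.0279) and Bcl3, a nuclear IkB protein gene, by 1.05 ± 0.28 (adjusted p = 0.0457). Bcl2l1, which encodes the survival protein BCL-XL, was lower by -0.56 ± 0.11 (adjusted p = 0.0154). All 5 had groups that did not overlap, where 19% of all genes were higher and 20.3% lower in this way. The 5 were picked by their adjusted p in this same comparison, so this adds nothing to their calls.

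At late against early passage, 8 STAT3 targets rose and 2 fell in KO cells, where 9.95% of all genes rose and 9% fell. In WT cells 6 rose and none fell, where 6.22% of all genes rose and 4.37% fell. The medians were 0.73 in KO and 0.30 in WT cells, against -0.0472 in KO and -0.00428 in WT cells over all genes. Fos, an AP-1 subunit gene, rose by 2.47 ± 0.25 in KO (adjusted p = 0.000416) and by 2.03 ± 0.25 in WT cells (adjusted p = 0.00198). Myc rose by 0.94 ± 0.10 in KO (adjusted p = 0.000454) and by 0.95 ± 0.10 in WT cells (adjusted p = 0.000975). Junb, another AP-1 subunit gene, rose by 1.90 ± 0.26 in KO (adjusted p = 0.00163) and by 1.21 ± 0.26 in WT cells (adjusted p = 0.0178). Lcn2 rose by 1.50 ± 0.18 in KO (adjusted p = 0.000877), and Cebpd rose by 0.89 ± 0.20 in WT cells (adjusted p = 0.0212). Many of these genes also answer to serum and other signals, and no target passed at early passage between genotypes or in the difference of the passage differences.

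Among 14 genes of the NF-kB and interleukin 1 inputs to Il6, 13 were measured. At late against early passage 4 rose and none fell in KO cells, where 9.95% of all genes rose and 9% fell. In WT cells 5 rose and 2 fell, where 6.22% of all genes rose and 4.37% fell. Il1rap, the accessory chain of the interleukin 1 receptor, rose in both, by 1.22 ± 0.21 in KO (adjusted p = 0.00458) and by 1.07 ± 0.21 in WT cells (adjusted p = 0.0137). Il1b, which encodes interleukin 1 beta, was not well above background on any early array. Its measured means were -6.17 late and -8.14 early in KO cells (adjusted p = 0.0202, limma). In WT cells they were -5.19 late and -7.88 early (adjusted p = 0.0101). Both tests include signals not above background. Each early signal was also raised to at least the lowest signal among probes above background on its array. Late cells were then 1.08-fold higher in KO, where 2 of 3 late arrays measured Il1b, and at least 2.37-fold higher in WT. These folds were not tested. In KO cells Il1rl1, the receptor gene for the Il33 product, rose by 1.65 ± 0.38 (adjusted p = 0.0143) and Nfkb1, an NF-kB subunit gene, by 0.59 ± 0.18 (adjusted p = 0.0405). In WT cells the NF-kB inhibitor genes Tnfaip3 and Nfkbia rose by 1.51 ± 0.21 (adjusted p = 0.00347) and 0.61 ± 0.12 (adjusted p = 0.0115).

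In late KO against late WT cells, 2 genes of this list were higher and 2 lower, where 3.46% of all genes were higher and 4.37% lower. Il1r1, the signalling receptor of interleukin 1, was higher by 0.74 ± 0.14 (adjusted p = 0.017) and Il33 by 1.40 ± 0.30 (adjusted p = 0.0231). Tnfaip3 was lower by -1.10 ± 0.21 (adjusted p = 0.0155) and Tnf by -1.28 ± 0.30 (adjusted p = 0.0306). Tnf is known to be made by macrophages, of whose 15 markers 2 were lower in the same comparison, and their part in it was not tested.

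**Figure D4:**
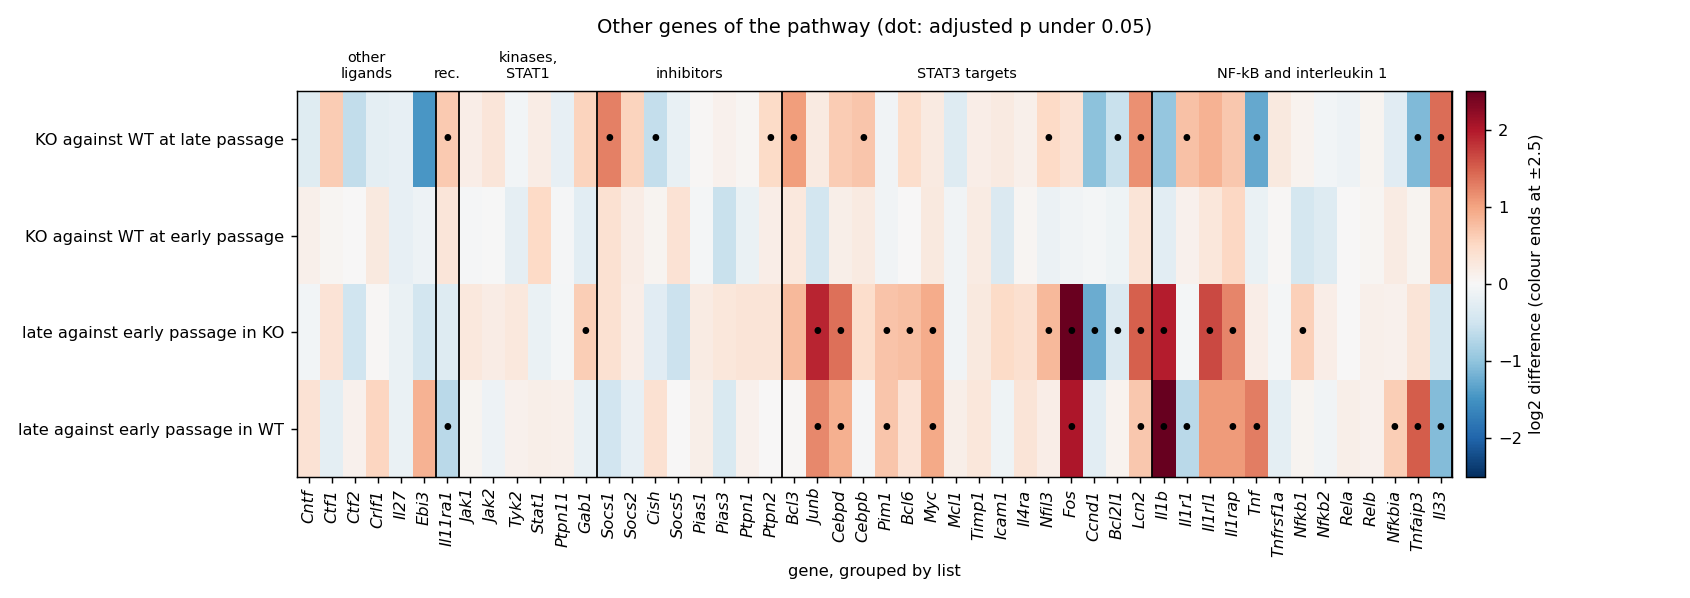
Colour map of the log2 difference of each measured gene of the pathway lists (columns) in the comparisons of KO with WT cells and of late with early passage (rows), red where positive and blue where negative, with a dot where the adjusted p was under 0.05. Dots stand on 10 STAT3 targets in late over early KO cells and on 6 in WT cells, and none stands in the early comparison of KO with WT.

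Cartilage markers also differed between late KO and late WT cells. Of 10 markers, 9 were tested and 5 were higher in late KO than in late WT cells, where 3.46% of all genes were higher. All 9 differences were positive, with a median of 1.95 against -0.00814 over all genes. Sox9, a transcription factor of cartilage cells, was higher by 1.40 ± 0.15 (adjusted p = 0.00194, limma). The summed level of the 10 was 26.5 to 42.7 in KO late, 25.9 to 31.1 in WT late, 29.2 to 39.8 in KO early and 21.9 to 76.6 in WT early. The summed level overlapped between KO late and WT late. It was 34.7, 26.5 and 42.7 on KO late replicates 1, 2 and 3. Such a sum is on the linear scale, so the brightest markers weigh most in it. The part of the cartilage markers in the Il6st and Socs3 differences was not tested.

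For each ligand, the 3 genes with the highest correlation to it over the 12 arrays are named as a description, and these arrays share slides, groups and scaling. For Il6 these were 9930104L06Rik (Pearson r = 0.981), Rnf19a (0.971) and C1ql3 (0.965). For Lif they were Npas4 (0.970), Ninl (0.957) and Cnr2 (0.950). For Il11 they were Arhgef5 (0.971), Ccl17 (0.969) and Col7a1 (0.967). For Clcf1 they were Tbc1d10a (0.975), Tead3 (0.949) and Ier5 (0.949).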

How the data were processed

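RNA of 12 MEF samples was labelled with Cy3 and hybridised to 1-colour Agilent arrays, 1 array per sample. Per the file headers, the deposited scanner files hold the intensity of each spot after Agilent Feature Extraction (11.5.1.1, or 10.7.3.1 per the submitters' processing notes) had subtracted background, with no normalization between arrays. The authors' deposited value table holds log2 values of 22887 probes, which its values show to be scaled per array and centred per probe (r = 0.998 to 0.999 with the centred scanner values), with 3175 missing, and its filter on probes is unknown. It served as an alternative. The scanner software's flags for outliers and background, in the deposited files, chose the spots used.

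For each array, log2 of the processed intensity minus that of its 75th percentile over non-control spots (568.9 to 902.5) was taken. Outlier spots were left out, and repeated spots averaged. A probe was kept where every array of at least 1 group had it well above background (24466 probes), and 107 kept probes were dropped for outlier spots. Each gene took its kept probe with the highest mean. Symbols came from RefSeq (GRCm38.p6), which named 27969 of 28290 accessions, and genes without one kept the file's name.

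limma 3.58.1 in R 4.3.3 fitted 4 group means over all 12 arrays, with Benjamini-Hochberg adjustment over 19507 genes, and was tested on simulated data. The members and the lists were chosen with earlier results of these data known. All members were described, and of each list up to 4 called genes with the lowest adjusted p per comparison. The number of arrays limits the precision.

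Replicate number and slide coincide. Deviations of same-numbered arrays correlated at 0.030, 0.079 and -0.092 between late and early KO cells. Between late and early WT cells they correlated at 0.279, 0.244 and 0.141. Between KO and WT cells, which cannot share an embryo, the values were 0.059, 0.056 and 0.156 early and -0.053, 0.089 and 0.032 late. Whether equal numbers mark the same culture was not tested. Alternatives covered background, scaling, filter, probe choice, slide, the fit and each array left out.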

Additional observations from a re-analysis of the deposited data

Results flagged for a closer look

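The passage difference of Socs3 in KO cells minus that in WT cells was 1.14 on the log2 scale. It drew attention because Socs3 was higher in late than in early KO cells on every slide (by 1.73, 0.90 and 0.15) and lower in late than in early WT cells on every slide (by -0.13, -0.31 and -0.21). The difference did not pass limma's test over all genes (adjusted p = 0.281). Without KO early replicate 1, the lowest Socs3 array, the value was 0.73 (adjusted p = 0.349).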

How the results depend on the processing

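The 10 called differences of members gave 276 values over the alternative fits, all with the same sign, and 231 of these were called. Settings that changed only the spread or the set of genes left the difference itself as it was. The sign could not turn in those. With 2, 0, 5, 3 and 0 members called (KO against WT late, KO against WT early, late against early KO, late against early WT, and the difference of the passage differences), the number of late KO against WT calls was 4 with normexp, 1 without a filter, 4 with only the groups compared, 7 with array weights, 1 with Xist as a covariate and 0 without both Xist-positive KO late arrays. For late against early KO it was 9 with array weights and 0 without those arrays. For late against early WT it was 1 without a filter, 0 with only the groups compared and 1 without those arrays, and for the difference of the passage differences 2 with array weights. The array weights did not converge fully. Leaving out each array gave 0 to 3, 0 to 0, 4 to 6, 1 to 3 and 0 to 1 members in the same order, and 255 to 2353, 2 to 5, 1780 to 4742, 1166 to 2459 and 1 to 230 of all genes. Without a filter 615, 3, 2320, 1003 and 3 of all genes were called. The cause was not tested.

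With the replicate number as a block, 2, 0, 6, 4 and 0 members were called. The added calls were Socs3 in KO (adjusted p = 0.0405, limma) and Il11 in WT cells (adjusted p = 0.0394). Clcf1 stayed called in KO (adjusted p = 0.0322) and WT cells (adjusted p = 0.0452). The changes given above for Clcf1 and Il11 came from another fit, with the block within each genotype. Whether the numbers pair cultures was not tested. Late KO against WT had 675 higher and 853 lower genes, against 996 and 789 with quantile normalization, 950 and 739 with normexp, and 837 and 719 with the percentile over probes above background on every array. Late against early WT had 1213 higher and 852 lower, against 837 and 1123 with normexp.

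Over the alternative fits, 35 values of uncalled differences had the other sign, and none was called. For late against early WT, Il6st was 0.00419 with quantile normalization, 0.0424 with normexp and 0.10 with array weights. For the difference of the passage differences, Clcf1 was 0.0413 with the all-array percentile, 0.0108 with the percentile over probes counted once, 0.0139 in the authors' table and 0.0975 without the Xist-positive KO late arrays, and Lif was 0.0215 in the authors' table. With the mean of a gene's probes, Stat3 was -0.21 in early KO against WT and Lifr -0.0503 in late against early KO. In early KO against WT, Lif was -0.26 in the authors' table, and with Xist as a covariate Il11 was 0.000809 and Socs3 -0.00619, while Il11 was -0.0156 in late against early KO. Leaving out an array moved, in early KO against WT, Socs3 between -0.30 and 0.43, Lif between -0.24 and 0.41, Stat3 between -0.0331 and 0.20, Lifr between -0.46 and 0.0759, Osmr between -0.48 and 0.0793 and Il6st between -0.21 and 0.38. It moved the Clcf1 difference of passage differences between -0.34 and 0.22, Il6st in late against early WT between -0.13 and 0.15 and Lifr in late against early KO between -0.15 and 0.39.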
